A study of Caenorhabditis elegans with 2 samples.

Results

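Cyclins and cyclin-dependent kinases (CDKs) drive the cell cycle, and 10 of their genes were followed here among the 20191 genes of the series, chosen by gene symbol. They are the B-type cyclin genes *cyb-1*, *cyb-2.1*, *cyb-2.2* and *cyb-3*, the A-type cyclin gene *cya-1*, the E-type cyclin gene *cye-1*, the D-type cyclin gene *cyd-1*, the kinase genes *cdk-1* and *cdk-4*, and the CDK inhibitor gene *cki-1*. A CDK is active only with a cyclin bound to it, and cyclins are made and destroyed in each cycle. B-type and A-type cyclins act with CDK-1 in mitosis, cyclin E acts with CDK-2 at the start of S phase, and cyclin D acts with CDK-4 in G1, while CKI-1, of the CIP/KIP family, holds cells out of the cycle. In *Caenorhabditis elegans* the fast early divisions run on stores that the mother loads into the egg, and embryonic cells stop dividing at different times as they differentiate.

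The study asked how gene expression changes in embryos whose mothers lack SPR-5, an H3K4 demethylase, and MET-2, an H3K9 methyltransferase. Single cells were taken from *spr-5; met-2* mutants, which carry *spr-5(b101)* and *met-2(n4256)* and are progeny of homozygous mothers, and from Wild Type (N2) embryos, which carry neither allele. Embryos of both genotypes came from starved and synchronized mothers, were enriched for the 100-200 cell stage, were pooled, and were dissociated with chitinase. The 3' ends of transcripts were captured in droplets and counted by unique molecular identifiers (UMIs), each standing for 1 captured molecule. There was 1 library per genotype, so no difference below has a replicate check, no test was run, and every interval covers counting error only.

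The *spr-5; met-2* mutant library had 686 cells with 411 to 5941 UMIs each (median 726.5, 732058 in all), against 219 cells with 758 to 66767 UMIs (median 2086, 1013190 in all) in the Wild Type library. Cells held 33.1% of all UMIs in the mutant library and 59.8% in the Wild Type library. In Wild Type 18 barcodes had more than 10000 UMIs and together held 48.6% of the UMIs of the cells, and the mutants had 0 such barcodes, so results that rest on these barcodes are also given without them. The libraries shared 11 cell barcodes. The targeted genes had 40 UMIs (54.6 CPM) in the mutants and 83 UMIs (81.9 CPM) in Wild Type for *spr-5*, and 20 UMIs (27.3 CPM) in the mutants and 64 UMIs (63.2 CPM) in Wild Type for *met-2*. CPM are UMIs per 1000000 UMIs of the cells of a library. Counts at the 3' end do not show whether a deletion is present upstream. Over the 6839 genes with at least 20 UMIs in both libraries together, the median ratio of mutant over Wild Type CPM was 0.27 on the log2 scale, so a gene at the middle of the table is higher in the mutants, and changes are read against it: a ratio whose log2 lies between 0 and 0.27 turns below 1 when the libraries are scaled to the median gene.

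Of the 10 genes 8 had at least 20 UMIs, and the exceptions were *cyb-2.1* and *cyb-2.2*. By a size of 0.25 on the log2 scale, 3 of the 8 were higher in *spr-5; met-2* mutants than in Wild Type (*cye-1*, *cdk-1* and *cki-1*), against 51.1% of all genes, and 3 were lower (*cyb-1*, *cyb-3* and *cdk-4*), against 24% of all genes. The counting interval lay above 1 for 2 genes (*cdk-1* and *cki-1*), against 34% of all genes, and below 1 for 3 (*cyb-1*, *cyb-3* and *cdk-4*), against 13.7%. Relative to the gene at the median, 0 of the 8 were higher and the same 3 were lower, and their median log2 ratio was 0.09 against 0.27 over all genes. Summed over the 10 genes, the mutants had 1537 UMIs (2100 CPM) and Wild Type had 2487 UMIs (2455 CPM), a ratio of 0.855 (95% counting interval 0.802 to 0.912).

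**Figure D1:**
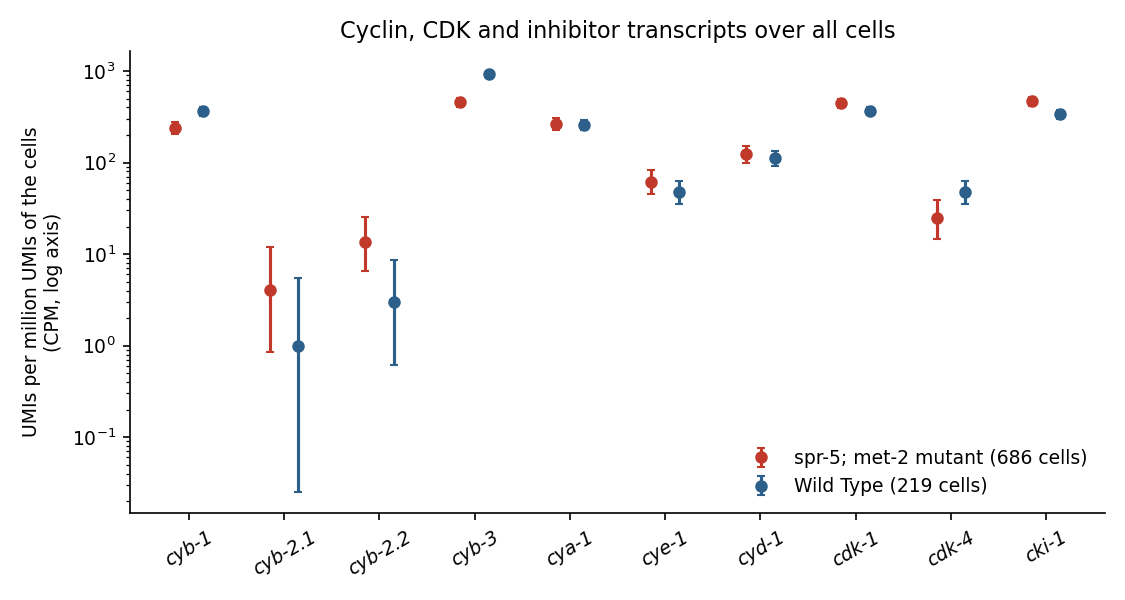
CPM of the 10 genes over all cells, on a log axis, for the *spr-5; met-2* mutant library (red, left of each pair) and the Wild Type library (blue, right). Bars are 95% Poisson intervals of the counts. *cyb-1*, *cyb-3* and *cdk-4* sit lower in the mutants, with intervals that overlap only for *cdk-4*, *cdk-1* and *cki-1* sit higher, and *cyb-2.1* and *cyb-2.2* rest on at most 10 UMIs.

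Both abundant B-type cyclin genes were lower in *spr-5; met-2* mutants. *cyb-3* (WBGene00000868), whose product is needed to separate sister chromatids, lies on chromosome V at 15395696 to 15397353, and *cyb-1* (WBGene00000865), whose product is needed to align chromosomes, lies on chromosome IV at 10735216 to 10737177, both on the plus strand of ce11. *cyb-3* had 333 UMIs, or 455 CPM (407 to 506), in *spr-5; met-2* mutants and 933 UMIs, or 921 CPM (863 to 982), in Wild Type. The ratio was 0.494 (0.435 to 0.560), which is -1.02 on the log2 scale and -1.29 relative to the median gene, and 5.07% of all genes had a lower ratio. *cyb-1* had 175 UMIs, or 239 CPM (205 to 277), in the mutants and 367 UMIs, or 362 CPM (326 to 401), in Wild Type. Its ratio was 0.660 (0.548 to 0.792), or -0.60 on the log2 scale and -0.87 relative to the median gene, and 11.99% of all genes had a lower one. Both genes were thus lower in the mutants by more than counting error, with the lower point value for *cyb-3* and intervals that touch. *cyb-3* was the most abundant of the 10 genes in Wild Type, whereas in the mutants *cki-1*, *cyb-3* and *cdk-1* lay within counting error of each other (467, 455 and 447 CPM).

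The paralogs *cyb-2.1* (WBGene00000866, chromosome IV, 10985985 to 10987426, plus strand) and *cyb-2.2* (WBGene00000867, chromosome I, 4114861 to 4116370, plus strand) were close to absent. *cyb-2.1* had 3 UMIs in the mutants and 1 in Wild Type, a ratio of 4.15 (0.333 to 218). *cyb-2.2* had 10 UMIs in the mutants and 3 in Wild Type, a ratio of 4.61 (1.19 to 26.1). They are close paralogs, so reads that fit both may have been dropped or split in the counting, and their values are uncertain. All B-type cyclin genes together had 521 UMIs (712 CPM) in the mutants and 1304 UMIs (1287 CPM) in Wild Type, a ratio of 0.553 (0.499 to 0.613). They made up 33.9% of the UMIs of the 10 genes in the mutants and 52.4% in Wild Type.

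The other cyclin genes differed less. *cya-1* (WBGene00000863, chromosome III, 9106699 to 9109272, minus strand) encodes cyclin A and overlaps *dos-1* on the opposite strand, which can matter where reads are counted without strand. It had 193 UMIs (264 CPM) in *spr-5; met-2* mutants and 261 UMIs (258 CPM) in Wild Type, a ratio of 1.02 (0.845 to 1.24) that turned to 0.851 when the libraries were scaled to the median gene. *cye-1* (WBGene00000871, chromosome I, 6780799 to 6784397, plus strand), the cyclin E gene, had 45 UMIs (61.5 CPM) in the mutants and 48 UMIs (47.4 CPM) in Wild Type, with a ratio of 1.298 (0.844 to 1.99). *cyd-1* (WBGene00000870, chromosome II, 12980591 to 12993117, plus strand), the cyclin D gene, had 91 UMIs (124 CPM) in the mutants and 113 UMIs (112 CPM) in Wild Type, with a ratio of 1.11 (0.836 to 1.48) that turned to 0.927 with scaling to the median gene. Over all cells no difference beyond counting error was detectable for these 3 genes. Their ratios moved with the setting, for *cya-1* up to 1.71 in cells with 500 to 2000 UMIs, and with 250 UMIs drawn per cell to 2.55 for *cyd-1* and 2.08 for *cye-1*, so no level is firm for them.

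The kinase genes went apart. *cdk-1* (WBGene00000405, chromosome III, 9747472 to 9748852, plus strand), which encodes the mitotic kinase, had 327 UMIs (447 CPM) in *spr-5; met-2* mutants and 373 UMIs (368 CPM) in Wild Type. The ratio was 1.21 (1.04 to 1.41), but it was 1.01 with scaling to the median gene and turned to 0.914 when each cell had the same weight. *cdk-4* (WBGene00000406, chromosome X, 13515856 to 13518911, minus strand), which encodes the partner of cyclin D, had 18 UMIs (24.6 CPM) in the mutants and 48 UMIs (47.4 CPM) in Wild Type. Its ratio was 0.519 (0.284 to 0.909), lower than that of all but 5.94% of genes, from few UMIs.

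*cki-1* (WBGene00000516, chromosome II, 7811240 to 7812105, plus strand), the inhibitor gene, had 342 UMIs (467 CPM) in *spr-5; met-2* mutants and 340 UMIs (336 CPM) in Wild Type. The ratio was 1.39 (1.19 to 1.62), or 0.48 on the log2 scale, and 1.16 with scaling to the median gene, so that its place among all genes was not far from the middle (60.3% had a lower ratio). The contrast between the inhibitor and the B-type cyclins does not depend on how the libraries are scaled. *cki-1* had 1.03 UMIs (0.881 to 1.198) per UMI of *cyb-3* in the mutants, against 0.364 (0.321 to 0.413) in Wild Type.

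The same holds for a cyclin set against its kinase. There were 1.02 *cyb-3* UMIs (0.872 to 1.19) per *cdk-1* UMI in the mutants and 2.50 (2.22 to 2.83) in Wild Type, and 0.535 *cyb-1* UMIs (0.443 to 0.645) per *cdk-1* UMI in the mutants and 0.984 (0.850 to 1.14) in Wild Type. For *cya-1* the intervals overlapped, with 0.590 UMIs (0.491 to 0.707) per *cdk-1* UMI in the mutants and 0.700 (0.595 to 0.822) in Wild Type. The kinase of cyclin D was lower against its cyclin by point value, with intervals that overlapped. There were 0.198 *cdk-4* UMIs (0.112 to 0.330) per *cyd-1* UMI in the mutants and 0.425 (0.297 to 0.600) in Wild Type. Between the 2 main B-type genes, *cyb-3* had 1.90 UMIs (1.58 to 2.30) per *cyb-1* UMI in the mutants and 2.54 (2.25 to 2.88) in Wild Type. These intervals overlapped slightly. Without the 18 largest barcodes *cdk-4* per *cyd-1* was 0.198 in the mutants and 0.659 (0.398 to 1.08) in Wild Type, and *cya-1* per *cdk-1* was 0.590 in the mutants and 0.584 (0.460 to 0.738) in Wild Type, so that its direction turned. *cyb-3* per *cdk-1* was then 1.02 in the mutants and 2.40 in Wild Type, and *cki-1* per *cyb-3* was 1.03 in the mutants and 0.372 in Wild Type.

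Pooled over all Wild Type cells, the size of the barcodes mattered little to the B-type genes. Their summed level was 1288 CPM in the 18 largest barcodes and 1286 CPM in the other cells. Within clusters, described below, it mattered more. The Wild Type sum was 1172 CPM with these barcodes and 961 CPM without them in the hypodermis-like cluster 0, and 1299 CPM and 1160 CPM in cluster 11. The cyclin A and cyclin D genes were higher in the large barcodes, at 297 CPM against 221 CPM for *cya-1* and 140 CPM against 84.5 CPM for *cyd-1*. Without them the mutant over Wild Type ratio was 0.501 for *cyb-3*, 0.642 for *cyb-1*, 1.19 for *cya-1*, 1.47 for *cyd-1* and 0.442 for *cdk-4*. Across 14 alternatives, which changed the cells, their weights, the depth, the clusters and the scaling, the ratio of *cyb-3* stayed between 0.411 and 0.590 and that of *cki-1* between 1.01 and 1.49. The ratio of *cyb-1* was below 1 in 13 of 14, with a lowest value of 0.383 in a draw of 250 UMIs per cell, and the exception was 1.04 in a draw of 500 UMIs per cell that left 60 UMIs of *cyb-1* in the mutants and 24 in Wild Type. Weighting the same cells equally without a draw gave 0.631.

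**Figure D2:**
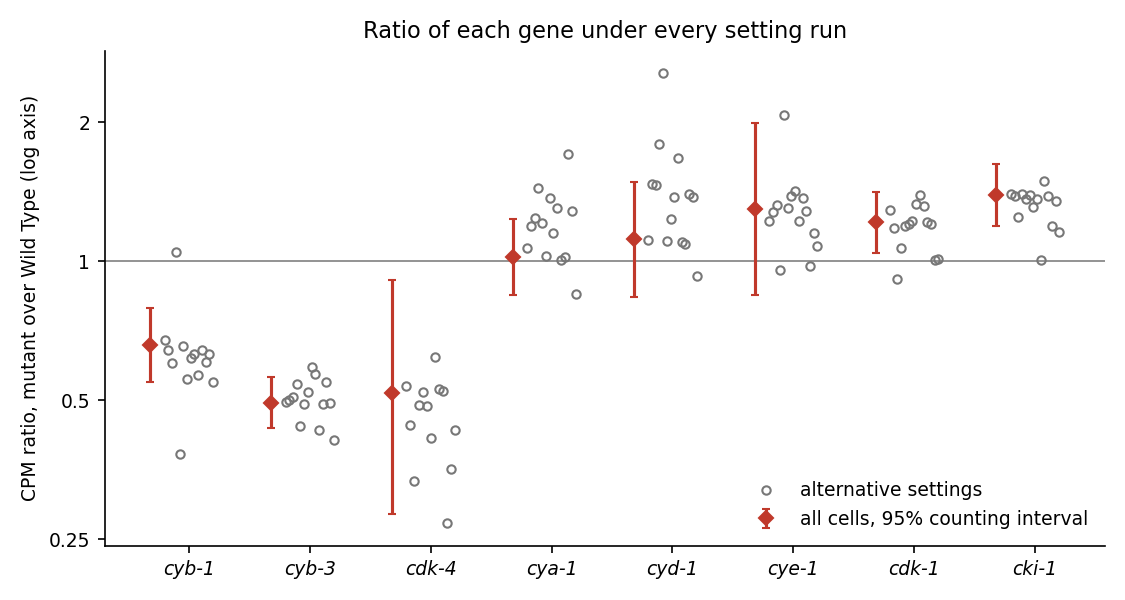
Ratio of mutant over Wild Type CPM (log axis) for the 8 genes with at least 20 UMIs. Red diamonds are the ratio over all cells with its 95% counting interval, and open circles are the alternative settings, 14 per gene and 13 for *cdk-4*. *cyb-3* and *cdk-4* lie below 1 in each setting and *cki-1* lies above 1 in each, with a lowest value of 1.01.

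Shares of cells with a UMI depend on depth, which was lower in the mutants. As counted, *cyb-3* was seen in 29.7% of mutant cells and in 70.8% of Wild Type cells. After 500 UMIs were drawn from each cell with at least that many (524 mutant and 219 Wild Type cells), the share was 17.7% (14.6 to 21.3) in the mutants and 30.1% (24.1 to 36.7) in Wild Type. For *cyb-1* the drawn shares lay within counting error of each other, at 10.7% (8.17 to 13.7) in the mutants and 10.5% (6.77 to 15.3) in Wild Type. Any B-type gene was then seen in 26.7% (23.0 to 30.7) of mutant cells and 36.1% (29.7 to 42.8) of Wild Type cells. For *cdk-1* the drawn shares were 17.7% in the mutants and 17.8% in Wild Type, and for *cki-1* they were 21.6% (18.1 to 25.34) in the mutants and 16.4% (11.8 to 22.02) in Wild Type. Any of the 10 genes was seen in 59.0% of drawn mutant cells and 60.3% of drawn Wild Type cells. The median depth before drawing was 726.5 UMIs in the mutants and 2086 in Wild Type, and no cell type of the embryo was taken as free of these transcripts.

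Free RNA, read from barcodes with at most 200 UMIs, also held these transcripts. It had 1005 CPM of B-type transcripts in *spr-5; met-2* mutants and 1149 CPM in Wild Type, a ratio of 0.874 (0.788 to 0.971). For *cyb-3* it had 661 CPM in the mutants and 862 CPM in Wild Type, and for *cyb-1* 326 CPM in the mutants and 278 CPM in Wild Type. The difference between the genotypes was thus smaller in free RNA than in cells for *cyb-3* and not detectable for *cyb-1* (1.17, 0.958 to 1.44). The level in cells was 0.688 times that in free RNA for *cyb-3* in the mutants and 1.07 times in Wild Type, so in the mutants the cells held less of it than the free RNA did. For *cki-1* the level in cells was 1.21 times that in free RNA in the mutants and 0.907 times in Wild Type. With 20% of the UMIs of the cells subtracted as free RNA, the ratio was 0.431 for *cyb-3* and 1.49 for *cki-1*.

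Cells of both libraries were then clustered together on other genes, with the 10 genes and the related lists left out, which gave 16 clusters. A cluster is called "X-like" only where at least 3 markers of 1 tissue were enriched in it. Further conditions on the next tissue, the leading genes and depth also applied, and 9 clusters stayed without a name. Among these, cluster 4 had the pharynx markers *pha-4*, *ceh-22* and *tbx-2* enriched, beside 2 neuron markers. Cluster 10 met this rule for neurons but had the pharyngeal factor gene *pha-2* among its leading genes, so it goes by its number. Clusters with at most 4 Wild Type cells numbered 9 and held 41.0% of mutant cells and 6.39% of Wild Type cells. Genotypes were compared within those 6 clusters where both libraries gave 10 cells or more. These were the hypodermis-like cluster 0 (87 mutant and 29 Wild Type cells), the body wall muscle-like cluster 5 (68 and 39), and 4 others called by their leading genes, which were cluster 4 (*ceh-53* and *eyg-1*, 98 and 37), cluster 6 (*unc-30*, *let-381* and *vab-7*, 76 and 16), cluster 10 (*ceh-5*, *pha-2* and *ceh-8*, 24 and 28) and cluster 11 (*T08H10.1*, *spp-10* and *zig-7*, 26 and 47).

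B-type transcripts were lower in *spr-5; met-2* mutants in all 6 of these clusters, with ratios of 0.385 to 0.715 for their sum and 5 intervals below 1. The interval that reached 1 was that of the body wall muscle-like cluster, with 376 CPM in the mutants and 615 CPM in Wild Type (0.612, 0.365 to 1.01). The lowest ratio was in cluster 6, with 755 CPM in the mutants and 1962 CPM in Wild Type (0.385, 0.263 to 0.560). In the hypodermis-like cluster the level was 552 CPM in the mutants and 1172 CPM in Wild Type (0.471, 0.352 to 0.622), and in cluster 11 it was 570 CPM in the mutants and 1299 CPM in Wild Type (0.439, 0.294 to 0.633). Of these 6 clusters only the hypodermis-like cluster and cluster 11 held barcodes over 10000 UMIs. Without these barcodes the ratio was 0.575 (0.405 to 0.812) in the hypodermis-like cluster and 0.491 (0.317 to 0.741) in cluster 11. The other clusters could not change, and the sum was still lower in all 6, with 5 intervals below 1. With cells of at least 500 UMIs weighted equally it was lower in all 6 as well, with ratios of 0.401 to 0.690, although *cyb-1* alone was then at 1.03 in cluster 11. Shares of cells with any B-type UMI, after 500 UMIs were drawn from each cell, did not show this in every cluster. They were 30.4% of mutant cells and 31.03% of Wild Type cells in the hypodermis-like cluster, 44.9% of mutant cells and 45.9% of Wild Type cells in cluster 4, and 33.3% (15.6 to 55.3) of mutant cells and 25.5% (13.9 to 40.3) of Wild Type cells in cluster 11. The share was lower in the mutants in the other 3, and in cluster 10 the share was 20.8% (7.13 to 42.2) of mutant cells and 60.7% (40.6 to 78.5) of Wild Type cells. Median depth was 670 UMIs in the mutants and 6196 UMIs in Wild Type in the hypodermis-like cluster.

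By point value, the 2 main B-type genes did not divide this evenly among clusters. *cyb-3* had ratios of 0.304 in cluster 6, 0.356 in cluster 11, 0.478 in the hypodermis-like cluster and 0.668 in cluster 4, each with an interval below 1. With the large barcodes left out, its ratio was 0.406 (0.227 to 0.688) in cluster 11. In the hypodermis-like cluster it was then 0.621 (0.407 to 0.941), from 57 Wild Type UMIs in place of 293. The distance between the hypodermis-like cluster and cluster 4 thus rests partly on these barcodes. In the body wall muscle-like cluster (0.757, 0.421 to 1.34) and in cluster 10 (0.885, 0.559 to 1.37) the interval of *cyb-3* included 1. *cyb-1* was lowest where *cyb-3* differed least, with ratios of 0.219 (0.0403 to 0.783) in the body wall muscle-like cluster and 0.239 (0.0737 to 0.606) in cluster 10, from 3 and 5 mutant UMIs, and 0.399 (0.211 to 0.696) in the hypodermis-like cluster. The value of *cyb-1* in the hypodermis-like cluster was 0.421 (0.205 to 0.828) with the large barcodes left out. With cells of at least 500 UMIs weighted equally, the ratio of *cyb-3* was 0.633 in cluster 10 and 0.836 in the body wall muscle-like cluster. In both clusters the intervals of *cyb-1* and *cyb-3* given above overlapped. Whether the 2 genes differ in their pattern among clusters was not tested. *cyb-3* UMIs per *cdk-1* UMI were fewer in the mutants in all 6 by point value, and the intervals overlapped in clusters 4, 5 and 6. Cluster 10 had 0.660 (0.405 to 1.06) in the mutants and 1.76 (1.17 to 2.70) in Wild Type, and *cdk-1* itself was higher in its mutant cells (2.37). The body wall muscle-like cluster 5 had 1.44 (0.727 to 2.91) in the mutants and 3.88 (1.74 to 9.76) in Wild Type, from 8 Wild Type *cdk-1* UMIs.

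The other genes showed no common direction or no interval away from 1, apart from single clusters. *cdk-1* was higher in the mutants in 5 of 6 clusters by point value, and its interval excluded 1 in cluster 10, with 990 CPM in the mutants and 418 CPM in Wild Type (2.37, 1.51 to 3.73). *cya-1* was higher in 3 and lower in 3, and its interval excluded 1 in cluster 4, with 569 CPM in the mutants and 193 CPM in Wild Type (2.96, 1.56 to 6.07). *cki-1* was higher in 5 of 6 by point value, with ratios of 0.974 to 1.65 and 0 intervals that excluded 1. *cyd-1* was higher in 3 and lower in 3, and *cye-1* was higher in 5, with 0 intervals that excluded 1 for either.

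**Figure D3:**
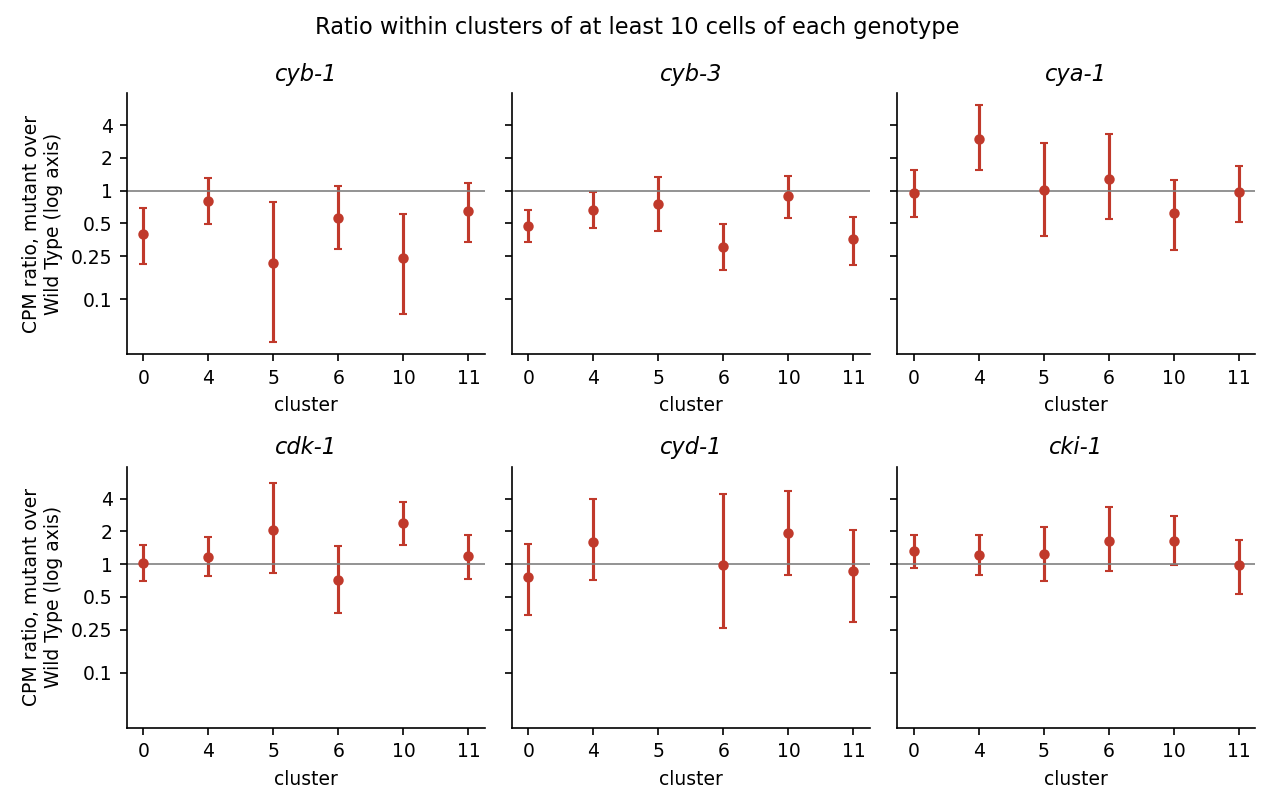
Ratio of mutant over Wild Type CPM (log axis) within the 6 clusters where both libraries gave 10 cells or more, for 6 genes, with 95% counting intervals. All points of *cyb-1* and *cyb-3* lie below 1, *cya-1* stands above 1 in cluster 4, *cdk-1* in cluster 10, and each interval of *cyd-1* and *cki-1* includes 1. The *cyd-1* point of cluster 5, from 1 UMI in the mutants and 0 in Wild Type, is not drawn.

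B-type levels spanned a wider range between clusters than between genotypes. The B-type sum was highest in cluster 1, led by *dsl-2*, *lsy-27*, *sdz-9* and *vet-2*, with 1727 CPM (1383 to 2130) in 26 mutant cells and 3503 CPM (2971 to 4102) in 9 Wild Type cells. *cki-1* was low there, with 59.5 CPM (12.3 to 174) in the mutants and 91.0 CPM (24.8 to 233) in Wild Type, from 3 and 4 UMIs, and did not differ beyond counting error from clusters 3 (137 CPM in the mutants) and 12. Among mutant cells cluster 3 (1069 CPM) and cluster 4 (1044 CPM) came next in the B-type sum and did not differ beyond counting error. From there the mutant levels descended in steps smaller than their intervals to the muscle-like clusters 5 (376 CPM) and 13 (270 CPM) and to cluster 9 (209 CPM), which had 9 of 13 body wall muscle markers enriched.

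The inhibitor followed another order. In the mutants *cki-1* was at 717 CPM (557 to 909) in cluster 4, which was also high in B-type transcripts, 661 CPM in cluster 7 (from 6 UMIs), 653 CPM in cluster 10, 627 CPM in cluster 6, 626 CPM in cluster 9 and 577 CPM in the neuron-like cluster 8, and these did not differ beyond counting error. It was at 159 CPM in the mutants and 111 CPM in Wild Type in the germline-like cluster 12, from 3 and 4 UMIs. *cdk-1* was highest in cluster 10 of the mutants (990 CPM) and low in the muscle-like clusters, with 223 CPM in the mutants and 109 CPM in Wild Type in cluster 5 and 154 CPM in the mutants in cluster 13. *cyd-1* was highest in cluster 3 (384 CPM, 51 mutant cells, led by *zip-8* and *daf-2*) and had 0 UMIs in the muscle-like cluster 13 (Poisson interval 0 to 142 CPM). The median depth of mutant cells ran from 490 UMIs in cluster 3 to 2168.5 UMIs in cluster 1, and its part in these levels was not tested.

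**Figure D4:**
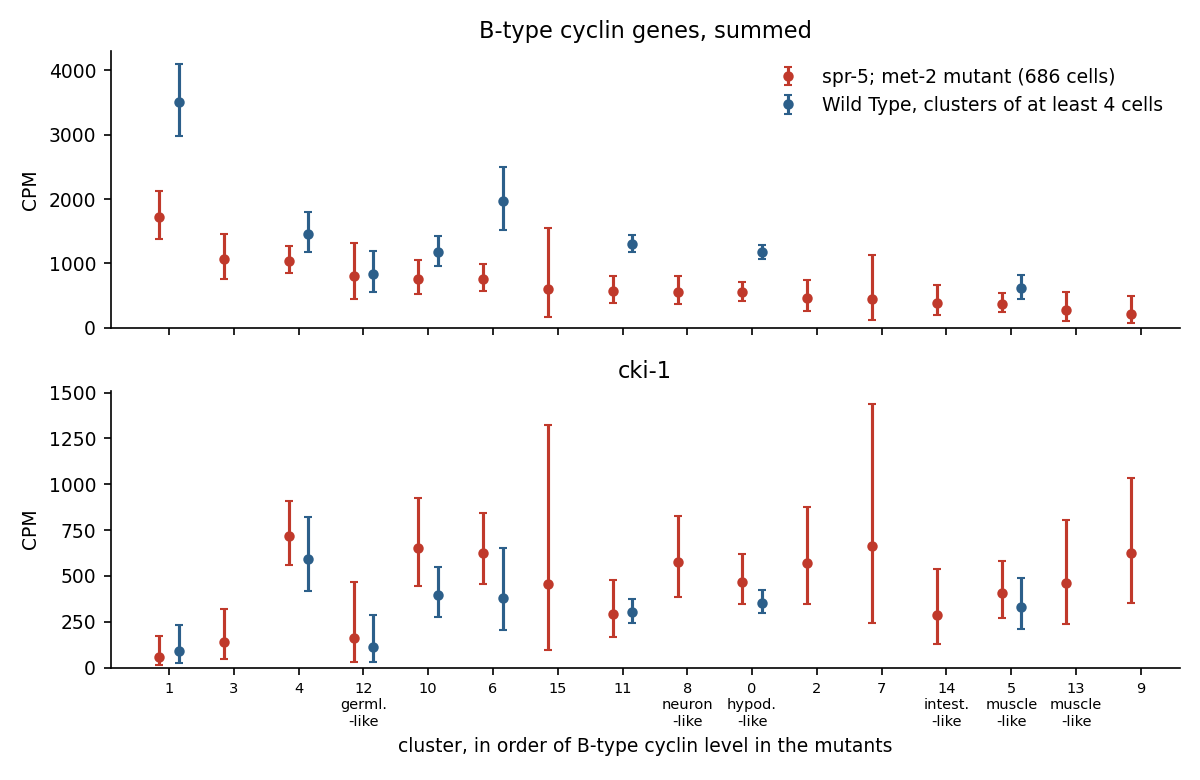
CPM of the summed B-type cyclin genes (top) and of *cki-1* (bottom) by cluster, in order of the B-type level in the *spr-5; met-2* mutants (red, left), with Wild Type (blue, right) where a cluster had at least 4 Wild Type cells. Bars are 95% Poisson intervals. Cluster 1 has the highest B-type level in both genotypes (1727 CPM in the mutants, 3503 CPM in Wild Type) and the lowest point value of *cki-1* among those drawn, from 3 and 4 UMIs.

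Over the 14 clusters with at least 20 cells, with both genotypes pooled, the profiles of the 6 genes with at least 100 UMIs were compared on a log2(CPM + 10) scale. These correlations describe clusters that share libraries and differ in depth and in the share of each genotype, so differences between genotypes enter them. *cya-1* and *cdk-1* were most alike (Pearson r = 0.960, n = 14 clusters), followed by *cyb-3* with *cya-1* (0.883), *cyb-3* with *cdk-1* (0.816) and *cyb-1* with *cyb-3* (0.778). *cki-1* had a negative r with each of the others, from -0.166 with *cyd-1* to -0.518 with *cyb-3*. Among 3241 genes the profiles most like that of *cyb-3* were those of *zyg-1* (0.944), *T05H10.4* (0.926) and *mdf-2* (0.924), and for *cyb-1* they were *phf-10* (0.929), *unc-85* (0.915) and *flh-1* (0.896). *cya-1* was nearest to *spdl-1* (0.972) and *snr-1* (0.962) besides *cdk-1*, and *cdk-1* to *baf-1* (0.955) and *wapl-1* (0.945) besides *cya-1*. *cyd-1* was nearest to *C39B5.2* (0.941), *bath-9* (0.926) and *K11G12.6* (0.906), and *cki-1* to *nuo-5* (0.905), *syd-2* (0.885) and *mrpl-14* (0.881). With a pseudocount of 1 CPM, 1 of these 3 stayed among the nearest of *cyb-3*, 2 among those of *cyb-1*, and 3 for each other gene.

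Other genes of the cycle were read from lists by role. Over all genes, 51.1% were higher and 24% lower by the size of 0.25, and 13.7% had an interval below 1. Replication and S phase genes, which license origins and copy DNA, were mostly lower in *spr-5; met-2* mutants, with 14 of 19 lower and 1 higher by the size of 0.25, 8 intervals below 1, and a median log2 ratio of -0.33 against 0.27 over all genes. The helicase gene *mcm-7* was at 538 CPM in the mutants and 1061 CPM in Wild Type (0.507, 0.451 to 0.570), the ribonucleotide reductase gene *rnr-1* at 236 CPM in the mutants and 508 CPM in Wild Type (0.465, 0.389 to 0.553), and the sliding clamp gene *pcn-1* at 523 CPM in the mutants and 656 CPM in Wild Type (0.797, 0.701 to 0.905). The origin recognition gene *orc-1* was the higher one, at 202 CPM in the mutants and 131 CPM in Wild Type (1.54, 1.21 to 1.96).

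Mitotic kinase and checkpoint genes also leaned lower, with 8 of 13 lower and 2 higher, against 24% and 51.1% of all genes. They had 7 intervals below 1, against 13.7% of all genes, and a median of -0.43. *bub-1*, a checkpoint kinase gene, was at 296 CPM in the mutants and 432 CPM in Wild Type (0.686, 0.580 to 0.809), *icp-1*, the INCENP gene, at 255 CPM in the mutants and 406 CPM in Wild Type (0.630, 0.527 to 0.750), and *mdf-1*, the MAD1 gene, at 73.8 CPM in the mutants and 138 CPM in Wild Type (0.534, 0.383 to 0.736). The Aurora A gene *air-1* went the other way, at 148 CPM in the mutants and 100.7 CPM in Wild Type (1.47, 1.11 to 1.94). Of 20 kinetochore, spindle and condensin genes 4 were higher and 6 lower, against 51.1% and 24% of all genes. Their median was -0.04, against 0.27 over all genes. In that list the condensin gene *mix-1* had a ratio of 1.51 (1.38 to 1.65) and *knl-2* 1.12 (1.01 to 1.24), against 0.686 (0.579 to 0.810) for the cytokinesis gene *cyk-4* and 1.61 (0.967 to 2.69) for *klp-7*.

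Genes of the anaphase-promoting complex, which marks cyclin B for destruction, had 3 of 11 higher and 4 lower, against 51.1% and 24% of all genes. Their median was 0.03, against 0.27 over all genes. Its activator gene *fzy-1* (Cdc20) had a ratio of 0.704 (0.574 to 0.860) and *mat-3* 0.578 (0.395 to 0.832), whereas *mat-2* had 1.75 (1.40 to 2.197) and *such-1* 8.77 (3.68 to 25.37, from 38 UMIs in the mutants and 6 in Wild Type).

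The closest relatives of the 10 genes did not share the lower level of the B-type cyclins. *cks-1*, a CDK subunit gene, was at 561 CPM in the mutants and 377 CPM in Wild Type (1.49, 1.29 to 1.72), *cki-2*, a second inhibitor gene, at 76.5 CPM in the mutants and 36.5 CPM in Wild Type (2.09, 1.36 to 3.26), and *cdk-2*, the kinase gene of cyclin E, at 28.7 CPM in the mutants and 25.7 CPM in Wild Type (1.12, 0.598 to 2.07). A list of kinase and phosphatase genes linked to CDKs also held *cyh-1* and *mnat-1*, which are not genes of these enzymes. In this list 5 of 7 were higher and 0 lower, against 51.1% and 24% of all genes, with a median of 0.56. The higher ones included the phosphatase genes *cdc-14* (1.93, 1.68 to 2.21) and *cdc-25.1* (2.70, 1.56 to 4.81). *cdc-25.2* (0.947, 0.779 to 1.15) and the CDK-activating kinase gene *cdk-7* (0.883, 0.650 to 1.19) had intervals that included 1.

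Of 13 Rb, E2F and G1 genes 7 were higher and 3 lower, which is near the share over all genes (51.1% higher and 24% lower), with a median of 0.30. Among them were the ubiquitin ligase subunit gene *skr-1* (1.99, 1.77 to 2.24), *lin-36* (1.12, 0.925 to 1.36) and the geminin gene *gmn-1* (0.577, 0.246 to 1.25). A list of CDKs and cyclins that act in transcription or, like *cdk-5*, *pct-1* and *cyy-1*, elsewhere had 7 of 13 higher and 0 lower, with a median of 0.27, the same as all genes. It included *cdk-8* (1.28, 1.01 to 1.63), *cyl-1* (1.12, 0.847 to 1.47), *cit-1.1* (2.28, 1.205 to 4.44) and *cit-1.2* (0.900, 0.585 to 1.37). Replication genes and mitotic kinase and checkpoint genes were the 2 cell cycle lists with most of their genes lower, and no list was tested.

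**Figure D5:**
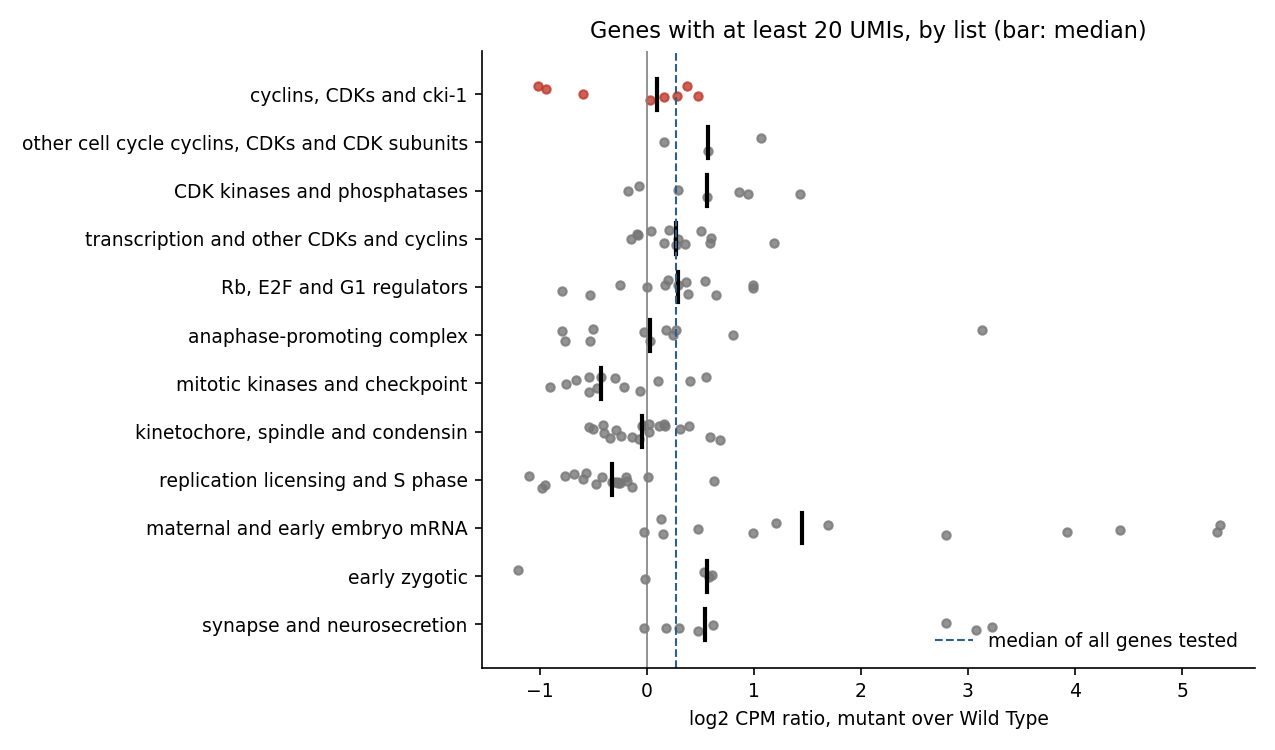
Log2 ratio of mutant over Wild Type CPM for each gene with at least 20 UMIs, by list, with the 8 measured genes of the 10 in red at the top. Black bars are list medians and the dashed line is the median of all genes (0.27). Replication genes (median -0.33) and mitotic kinase and checkpoint genes (median -0.43) lie to the left of it, and maternal genes (median 1.45) to the right. *sdz-1*, with 0 UMIs in Wild Type, is not drawn.

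Lists of genes that can mark stage differed between the libraries. Over all genes, 51.1% were higher in the mutants and 24% were lower. Maternal and early embryo mRNAs had 9 of 12 higher and 0 lower and summed to 1041 CPM in the mutants and 521 CPM in Wild Type, with none of the 16 listed at 0 UMIs in either library. Among them *nmy-2* had a ratio of 1.39 (1.18 to 1.63), *cey-3* 1.11 (0.734 to 1.68), *pos-1* 0.983 (0.577 to 1.65) and *cey-2* 40.8 (10.8 to 345, from 59 UMIs in the mutants and 2 in Wild Type). *cey-2* is also in the germline marker list. Besides the germline-like cluster 12, it was enriched in clusters 3 and 9, the neuron-like cluster 8 and the muscle-like cluster 13. The list thus does not mark stage alone. The study reports germline genes expressed in somatic cells of the mutants, and their part in this list was not tested. Early zygotic genes had 4 of 6 higher and 1 lower and summed to 350 CPM in the mutants and 188 CPM in Wild Type, and 3 of 16 were at 0 UMIs in the mutants against 10 of 16 in Wild Type. They included *sdz-1*, with 96 UMIs in the mutants and 0 in Wild Type (where 3 UMIs would be 2.96 CPM), *tbx-8* (0.433, 0.190 to 0.902) and *elt-1* (0.987, 0.719 to 1.35). Synapse genes, listed as marks of later neurons, had 6 of 8 higher and 0 lower. They summed to 852 CPM in the mutants and 463 CPM in Wild Type, with *snt-1* at 0 UMIs in Wild Type. Their ratios were 1.39 for *unc-116*, 1.53 for *snb-1*, 9.34 for *unc-104* and 0.979 for *unc-18*. Of 624 UMIs in the mutants and 469 in Wild Type, *unc-116* had 191 and 190 and *snb-1* had 179 and 162. The sum thus rests largely on these genes and does not measure how far neurons had matured. The early zygotic sum rests on *sdz-1*, a leading gene of the intestine-like cluster 14 (23 mutant cells and 1 Wild Type cell), and without it the list summed to 219 CPM in the mutants and 188 CPM in Wild Type (1.17, 0.938 to 1.45). Among marker lists of tissues, the summed ratio was 0.743 for hypodermis (8 of 12 lower, 2 higher) and 1.54 for body wall muscle (9 of 12 higher, 3 lower). It was 1.43 for neurons (6 of 11 higher, 2 lower, near the share over all genes) and 4.04 for ciliated neurons (3 of 3 higher). Other mesoderm had 31.6 (3 of 3 higher), from 137 UMIs in the mutants and 6 in Wild Type. Pharynx had 1.59 (3 of 4 higher), glia and excretory cells 1.40 (2 of 3 higher) and germline 1.91 (1 of 2 higher, 1 lower). Intestine had 3.56, from 54 UMIs in the mutants and 21 in Wild Type. The part of stage, cell type and RNA quality (a median of 1.98% mitochondrial UMIs in the mutants and 0.731% in Wild Type) in the levels of the 10 genes was not tested, and with 1 library each, genotype and library cannot be told apart.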

How the data were processed

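Whole-number UMI counts per gene and barcode were deposited by the authors without filtering or normalization, and the submitters' processing notes name Cell Ranger 3.0.2, Seurat and ce11. Gene positions came from Ensembl release 115. The 686 mutant and 219 Wild Type barcodes with the highest UMI totals were taken as cells, after the cell numbers in the labels. UMIs were summed over cells and scaled to CPM, with exact Poisson intervals, exact conditional binomial intervals for ratios and exact binomial (Clopper-Pearson) intervals for shares, all at 95% and covering counting error only. A floor of 3 UMIs is 4.10 CPM in the mutants and 2.96 CPM in Wild Type. Gene counts used genes with at least 20 UMIs and a size of 0.25 (log2), the cutoff of the study.

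Clustering used Scanpy 1.11.5 in Python 3.11.15, with 2000 variable genes, 20 components, 15 neighbours and Leiden resolution 1. The 10 genes and the listed genes were left out (162 genes). Tissue names needed 3 markers enriched 2 times, and met further conditions on the next list, the leading genes and depth. Scrublet called 3 mutant cells (0.437%) and 2 Wild Type cells (0.913%) as doublets, which were kept except in an alternative. Ratios and their counting intervals were tested on simulated counts. The clustering and the doublet calls were not.

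The named genes are the 10, of each list the 2 with most UMIs and the highest and lowest ratio, and the 3 most similar profiles per gene. Members and lists were chosen with earlier results of these data known. Alternatives changed the cells, weights, depth, doublets, clusters, free RNA and scaling.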

Additional observations from a re-analysis of the deposited data

How the results depend on the processing

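The ratio of the summed B-type cyclin genes (0.553, 0.499 to 0.613) stayed below 1 in 14 of 14 alternatives. It left that interval with 20% of UMIs subtracted as free RNA (0.483) and with scaling by the median of ratios (0.460). Its point value also left the interval with 500 UMIs drawn per cell (0.667) and with 250 drawn (0.426). The draws kept few UMIs, for *cyb-3* 110 in the mutants and 85 in Wild Type at 500, and 66 and 48 at 250. They thus have a wider counting error of their own, and no shift beyond it is claimed for them. Of single genes, the ratio of *cyb-1* turned to 1.04 and that of *cye-1* to 0.955 with 500 UMIs drawn per cell, that of *cye-1* to 0.975 in cells with 500 to 2000 UMIs, and that of *cdk-1* to 0.914 with cells weighted equally. The cause was not tested. The count of the 10 genes higher in the mutants (3) was 5 with 250 UMIs drawn per cell, 5 with equal cluster weights, 0 with scaling by the median of ratios and 0 with a log2 ratio past 1. The count lower in the mutants (3) was 2 with 500 UMIs drawn per cell, 2 with 250 drawn and 1 with a log2 ratio past 1. Without the minimum of 20 UMIs, 5376 genes in place of 3493 were higher and 2158 in place of 1644 were lower, which adds genes with few UMIs. A draw of 250 UMIs gave no ratio for *cdk-4*. The cells with 500 to 2000 UMIs (439 mutant and 103 Wild Type), the equal weights for cells with at least 500 UMIs, the clusters without large barcodes and the early zygotic list without *sdz-1* were chosen after seeing the data. No paired analysis was possible because each genotype has 1 library. Depth limits *cyb-2.1*, *cyb-2.2*, *cye-1*, *cdk-4* and most values within clusters.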
